A study of Mus musculus with 23 samples.

Results

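Insulin signalling from the receptor to the transcription factor FOXO1 was followed through 9 genes taken by symbol, Insr, Igf1r, Irs1, Irs2, Pik3r1, Akt1, Akt2, Foxo1 and Grb14. All 9 were found among the 24029 genes of the table. All 9 averaged at least 1 RPKM over the 4 libraries of the main comparison, RPKM being reads scaled to gene model length and to library size.

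The cells were C3H10T1/2, a line of mesenchymal stem cells from C3H mice that can be turned into fat cells. Its 6 libraries form 6 groups of 1: mature adipocytes at day 7 by TELP T18, by TELP N9_ss, by TELP N9 and by a standard procedure, and pre-adipocytes at day 0 by TELP N9 and by the standard procedure. TELP is the library construction method that the series tested, and the labels do not spell out T18, N9 or ss. The standard libraries were made with oligo(dT) beads and fragments of about 200 bp. All cells had been seeded at 70% confluency and had BMP7 (8.3 nM, human recombinant) for 3 days in medium with 10% Fetalclone III serum. Day 7 cells then had DEX (dexamethasone, 5 uM), IBMX (0.5 mM), insulin (0.12 ug/ml), the compound labelled Rosi (1 uM) and T3 (1 nM) up to day 2, and insulin, Rosi and T3 at the same doses up to day 7. Insulin, the ligand of the pathway, was thus part of the medium throughout differentiation, and the labels do not say how long before harvest it was last given. The other 17 samples of the series are chromatin libraries and were not analysed here. No group has a replicate, and nothing says that the libraries of a day came from separate cultures.

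The labelled cell types were checked on their markers. The 8 adipocyte markers summed to 32709 RPKM in TELP N9 and 14954 in the standard library at day 7, against 29.9 and 39.9 at day 0. The 6 preadipocyte markers summed to 40.9 and 160.0 RPKM at day 7 and to 340.5 and 282 at day 0. Of 21 markers of macrophages, endothelium, muscle, bone and cartilage, 15 were under 1 RPKM in every library. Of the other 6, Tek (endothelium), Acta1 (muscle), Runx2 (bone) and Col2a1 (cartilage) were called lower at day 7 in both library types. Tek was listed at 0 in TELP N9 and stood at 1.18 RPKM in standard at day 7, against 9.46 and 11.2 at day 0, and Runx2 at 2.11 and 6.15 against 16.5 and 15.5. Acta1 was at 7.39 and 5.20 RPKM against 36.5 and 11.9, and Col2a1 at 0.516 and 0.243 against 4.17 and 4.85. Cd68, a macrophage marker, was at 4.70 and 1.82 RPKM against 0.423 and 1.03, and Des, a muscle marker, at 1.27 and 0.690 against 0.0154 and 0.0243. Their part in the results was not tested. Estimated depth, as the reads that 1 RPKM stands for in each kb of gene model, was 4.76 for T18, 5.76 for N9_ss, 5.50 for N9 and 14.2 for standard at day 7, and 22.6 for N9 and 14.4 for standard at day 0. Low values of N9_ss and N9 stood at 1 common ratio in 2313 of 2689 genes (86.0%), so these columns share reads and N9_ss is not a replicate. The 10 most abundant models held 79.8% of the summed RPKM in T18, against 32.8% in N9.

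Insulin and IGF1 bind the receptor tyrosine kinases encoded by Insr and Igf1r. The active receptor phosphorylates the docking proteins IRS1 and IRS2, which recruit PI3-kinase through its regulatory subunit p85alpha (Pik3r1). The lipid made by PI3-kinase brings AKT1 and AKT2 to the membrane for activation, and AKT phosphorylates FOXO1, which then leaves the nucleus. GRB14 binds the active insulin receptor and inhibits it. In fat cells AKT2 is the isoform best known for insulin-stimulated glucose uptake, and FOXO1 is known to restrain adipocyte differentiation.

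Promoter sequence was taken from RefSeq (build GRCm38.p6), whose table held 8 of the 9 genes. Insr had no entry. The deposited values were made on mm9, so these coordinates do not refer to the authors' build. The stretches shown belong to Irs2 and Irs1, whose levels went opposite ways, Irs1 only slightly in the standard libraries. Also shown is Igf1r, the receptor gene that was lower at day 7, and each stretch is the 250 bases before the annotated start. Irs2 lies at chr8:11008930-11009179 on the minus strand, Irs1 at chr1:82291440-82291689 on the minus strand, and Igf1r at chr7:67952007-67952256 on the plus strand. Capitals mark matches on either strand to the E-box CACGTG, the GC box motif GGGCGG, and the box bound by nuclear factor Y, CCAAT. Forkhead sites were searched only as the exact core GTAAACA, and their other forms were neither searched nor marked.
Irs2: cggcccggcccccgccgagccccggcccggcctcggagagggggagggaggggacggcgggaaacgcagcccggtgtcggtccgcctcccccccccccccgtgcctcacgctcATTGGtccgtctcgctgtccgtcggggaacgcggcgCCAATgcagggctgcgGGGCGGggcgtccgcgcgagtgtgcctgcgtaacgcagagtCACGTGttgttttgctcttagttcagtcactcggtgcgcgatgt
Irs1: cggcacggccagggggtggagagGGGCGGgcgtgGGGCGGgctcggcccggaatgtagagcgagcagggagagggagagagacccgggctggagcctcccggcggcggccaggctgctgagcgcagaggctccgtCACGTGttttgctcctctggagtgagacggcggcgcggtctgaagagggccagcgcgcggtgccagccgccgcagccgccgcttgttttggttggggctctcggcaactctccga
Igf1r: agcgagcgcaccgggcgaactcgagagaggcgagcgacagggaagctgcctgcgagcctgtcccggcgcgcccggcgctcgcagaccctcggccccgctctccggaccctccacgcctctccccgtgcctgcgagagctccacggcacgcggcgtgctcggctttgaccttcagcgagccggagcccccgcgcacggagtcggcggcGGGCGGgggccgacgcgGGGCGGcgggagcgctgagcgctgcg
Both docking protein genes held 1 E-box, which begins 44 bases before the start in Irs2 and 115 before it in Irs1, while the Igf1r stretch held 0. CACGTG occurs in 6.02% of the 32851 promoter stretches of the same length. GGGCGG was found 1 time in Irs2, 2 times in Irs1 and 2 times in Igf1r, and it occurs in 32.7% of all stretches. CCAAT was found 2 times in Irs2 and in 33.8% of all stretches. GTAAACA was in 0 of these 3 stretches and in 3.17% of all, which leaves other forms of forkhead site uncounted. Among the other listed genes with a promoter entry only Akt1 held it, 1 time in 1 of its 2 stretches. GC content was 72.8%, 72.4% and 77.6% in Irs2, Irs1 and Igf1r, against a median of 52.4%. The marked letters describe the sequence and are not shown to be bound.

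Insr was higher and Igf1r lower at day 7 than at day 0 in both library types. Insr stood at 15.3 RPKM in TELP N9, 15.7 in N9_ss, 12.9 in the standard library and 2.05 in T18 at day 7, against 5.52 in TELP N9 and 5.20 in the standard library at day 0. Its day 7 values lay above both day 0 values in every library but T18. Igf1r stood at 1.77, 1.72, 6.97 and 1.03 RPKM in TELP N9, N9_ss, standard and T18 at day 7, against 19.9 in TELP N9 and 16.1 in standard at day 0. All 4 day 7 libraries were below both day 0 libraries. These 4, here and for the genes below, are not separate checks, since N9_ss shares reads with N9. T18 was the lowest library for every listed gene, and 83.4% of all genes were called lower in T18 than in N9. On the log2(RPKM + 1) scale, which understates the change of low values, Insr differed by 1.32 in TELP N9 and 1.16 in standard (day 7 minus day 0). The Igf1r difference was -2.91 in TELP N9 and -1.10 in standard. In bulk RNA, fewer cells of a type and less RNA per cell cannot be told apart.

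A share of summed RPKM within 1 library does not move when a library is multiplied by a constant. Insr made up 89.6% of the RPKM of both receptors in TELP N9, 90.1% in N9_ss, 64.9% in standard and 66.4% in T18 at day 7, against 21.7% in TELP N9 and 24.4% in standard at day 0. So the insulin receptor transcript was the larger part in all 4 day 7 libraries and the smaller part in both day 0 libraries. Summed, the receptors came to 17.1 RPKM in TELP N9 and 19.8 in standard at day 7, against 25.4 and 21.3 at day 0.

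**Figure D1:**
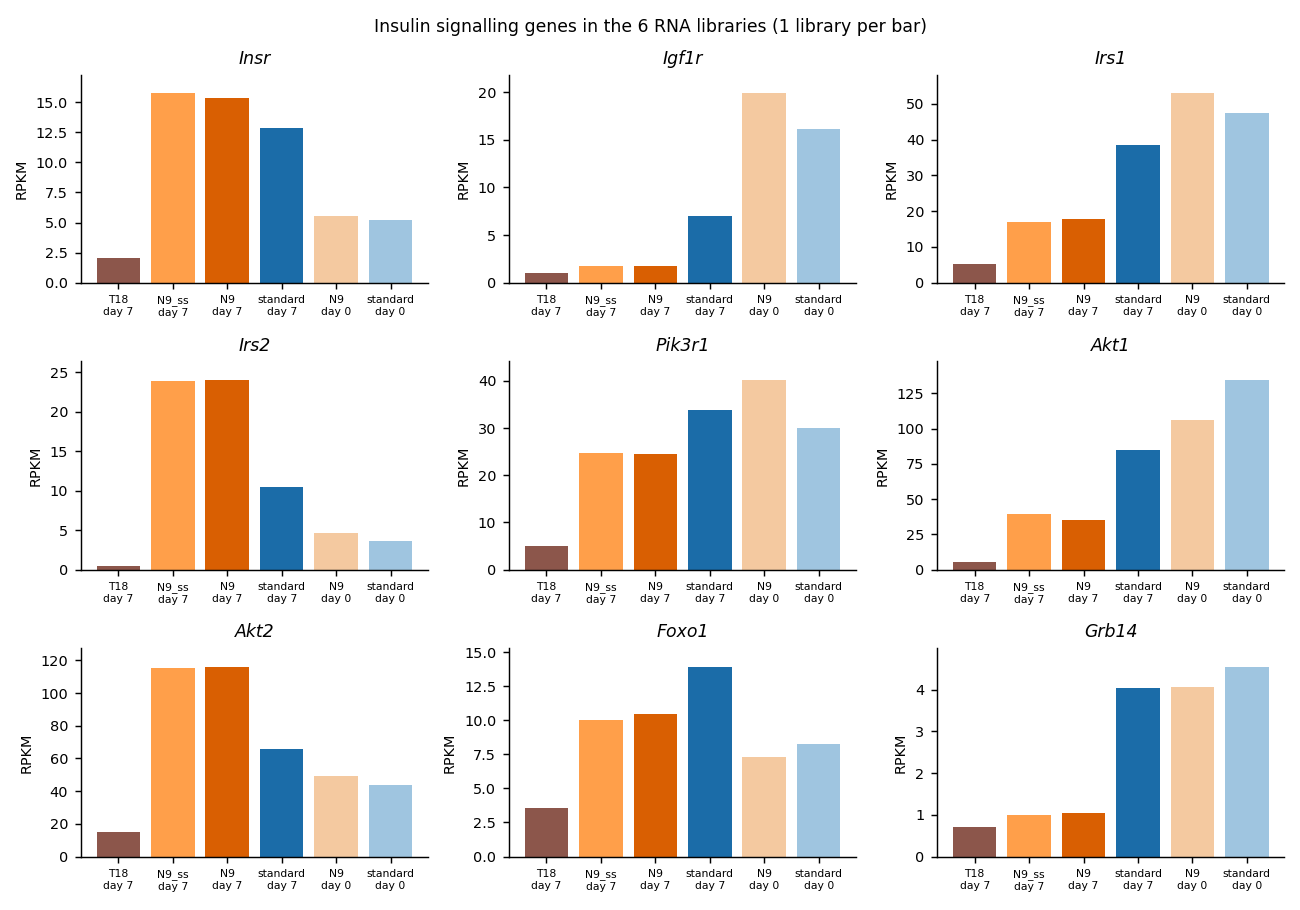
RPKM (y axis, linear from 0, a scale of its own in each panel) of the 9 genes in the 6 libraries, 1 library a bar, with no error bar because no group has a replicate. Insr, Irs2 and Akt2 are higher in the N9, N9_ss and standard bars of day 7 than at day 0, Igf1r is lower, and T18 is the lowest bar for every gene.

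Among the docking proteins, Irs2 was called higher at day 7 in both library types. Irs1 was lower in both but called so in TELP N9 alone. Irs2 was at 24.0 RPKM in TELP N9, 23.9 in N9_ss, 10.5 in standard and 0.496 in T18 at day 7, against 4.69 in TELP N9 and 3.65 in standard at day 0. Irs1 was at 17.7, 17.0, 38.5 and 5.31 RPKM in the same order at day 7, against 52.9 in TELP N9 and 47.5 in standard at day 0. Irs2 was higher in each day 7 library but T18 than in both day 0 libraries. Irs1 was lower in all 4, though T18 was the lowest library for every listed gene. The Irs2 difference was 2.13 in TELP N9 and 1.30 in standard, and the Irs1 difference was -1.52 and -0.29. Irs2 held 57.5% of the RPKM of both genes in TELP N9, 58.5% in N9_ss, 21.4% in standard and 8.53% in T18 at day 7, against 8.16% in TELP N9 and 7.13% in standard at day 0. Irs1 thus remained the larger part in the standard and T18 libraries of day 7. Irs4, a further docking protein, was at most 0.058 RPKM in these 4 TELP N9 and standard libraries.

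Pik3r1, which encodes the regulatory subunit p85alpha, was not called in either library type. It was at 24.5 RPKM in TELP N9, 24.6 in N9_ss, 33.9 in standard and 5.01 in T18 at day 7, against 40.1 in TELP N9 and 29.9 in standard at day 0. The days overlapped, since the standard day 7 value lies between the day 0 values. Differences were -0.69 in TELP N9 and 0.17 in standard, and neither reached 1. The TELP N9 value was -1.20 under equal totals, a call, and -0.17 under median of ratios. The other regulatory subunits were Pik3r2 at 12.96 and 25.1 RPKM (TELP N9 and standard) at day 7 against 38.5 and 33.9 at day 0, and Pik3r3 at 10.7 and 21.5 against 21.7 and 27.0. Pik3r1 held 50.9% of the 3 regulatory transcripts in TELP N9 and 42.1% in standard at day 7, against 40.0% and 33.0% at day 0, and 63.0% in T18. Of the catalytic subunits, Pik3ca (p110alpha) was at 4.17 and 6.69 RPKM at day 7 and 7.08 and 7.16 at day 0. Pik3cb (p110beta) was at 3.30 and 1.81 RPKM at day 7 and 0.660 and 0.799 at day 0. Its share of the 3 catalytic transcripts was 44.2% and 21.1% at day 7 against 8.36% and 9.83% at day 0.

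The AKT isoforms were the most abundant of the 9 genes in every library but those of day 0, where Irs1 ranked above Akt2. Akt2 was at 116 RPKM in TELP N9, 115 in N9_ss, 66.0 in standard and 15.0 in T18 at day 7, against 49.0 in TELP N9 and 44.0 in standard at day 0. Akt1 was at 35.3, 39.8, 84.6 and 5.57 RPKM in that order at day 7, against 106 in TELP N9 and 134 in standard at day 0. Akt1 was lower in all 4 day 7 libraries than in both of day 0, though T18 was the lowest library for every listed gene. Akt2 was higher in all day 7 libraries but T18. The Akt2 difference was 1.22 in TELP N9 and 0.57 in standard, and that of Akt1 was -1.56 and -0.66. Akt2 made up 76.7% of the summed RPKM of Akt1 and Akt2 in TELP N9, 74.3% in N9_ss, 73.0% in T18 and 43.8% in standard at day 7, against 31.6% in TELP N9 and 24.7% in standard at day 0. Their sum was 151 RPKM in TELP N9 and 151 in standard at day 7, against 155 and 178 at day 0.

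**Figure D2:**
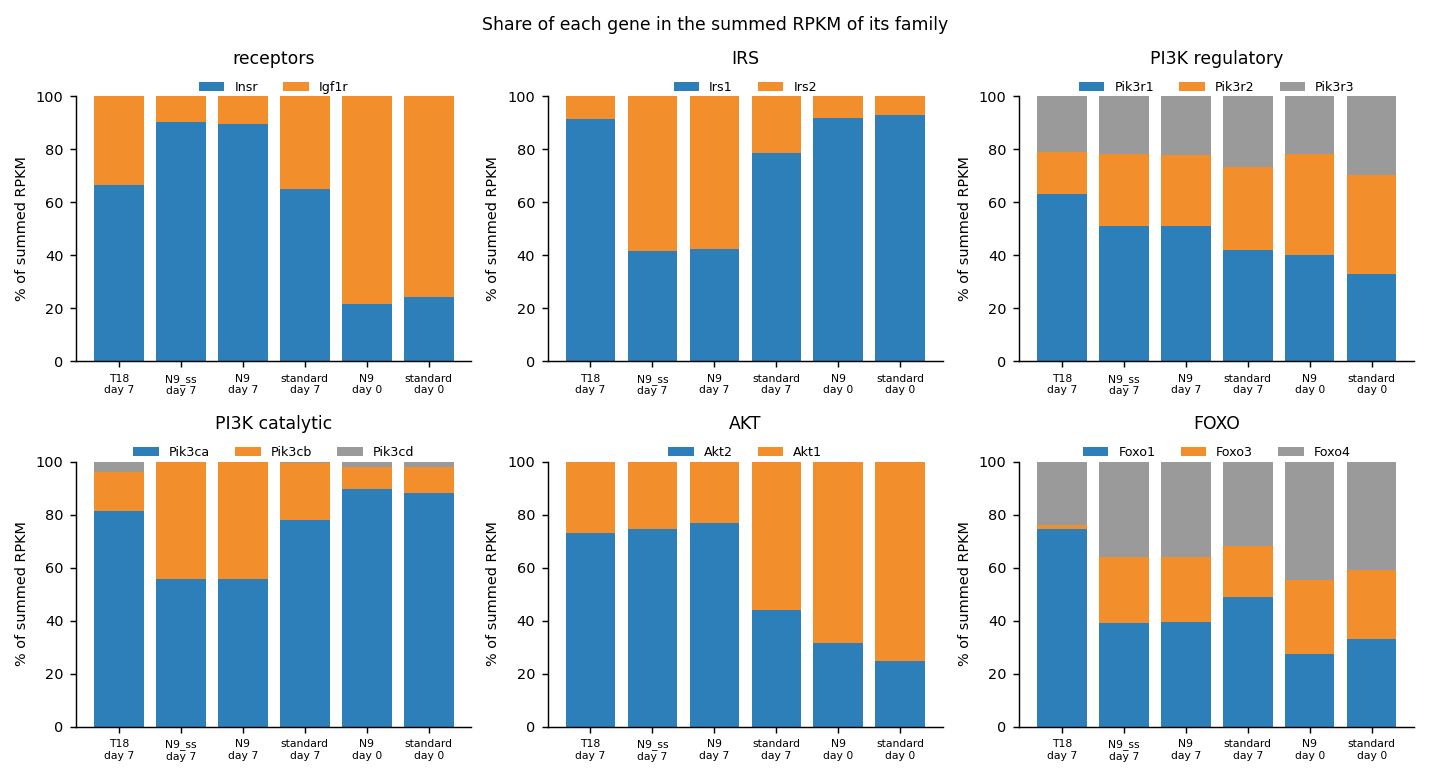
Share of each gene (y axis, percent of the family's summed RPKM) in 6 families across the 6 libraries, 1 library a bar and 1 colour a gene. The Insr, Irs2, Akt2 and Pik3cb parts are larger in the TELP N9 and standard libraries of day 7 than in those of day 0, and T18 resembles N9 for AKT but not for IRS or FOXO.

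Foxo1 was moderately higher at day 7. It was at 10.4 RPKM in TELP N9, 9.99 in N9_ss, 13.9 in standard and 3.53 in T18 at day 7, against 7.26 in TELP N9 and 8.28 in standard at day 0. Outside T18 the days did not overlap, though the differences of 0.47 in TELP N9 and 0.68 in standard were under 1. Under scaling to equal totals the TELP N9 difference was 0.0056. Foxo3 was at 6.56 and 5.54 RPKM at day 7 and 7.33 and 6.41 at day 0, and Foxo4 at 9.51 and 9.05 against 11.8 and 10.3. Foxo1 made up 39.3% of the 3 FOXO transcripts in TELP N9 and 48.8% in standard at day 7, against 27.5% and 33.2% at day 0.

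Grb14, the inhibitor, was the lowest or next to lowest of the 9 genes in each library. It was at 1.03 RPKM in TELP N9, 0.986 in N9_ss, 4.05 in standard and 0.715 in T18 at day 7, against 4.06 in TELP N9 and 4.54 in standard at day 0. The standard day 7 value was close to that of TELP N9 at day 0. The lower TELP values of day 7 rest on few reads for each kb of gene model, an estimated 5.68 in N9. Differences were -1.32 in TELP N9 and -0.13 in standard. Grb10, an adaptor of the same family that also inhibits the receptor, was far more abundant, at 48.9 and 88.6 RPKM at day 7 and 191 and 195 at day 0. It was called lower in both library types, by -1.95 and -1.13, and median of ratios scaling moved the standard value to -0.98.

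A gene was called at a difference of at least 1 log2 unit, that is 2-fold on the log2(RPKM + 1) scale. By that rule Insr and Irs2 were higher and Igf1r lower in both library types, 3 of 9 genes, where 13% of 11474 genes were called in both. In standard alone the same 2 were higher and the same 1 lower, against 8.22% and 6.53% of all genes, 14.8% in all. In TELP N9 alone Insr, Irs2 and Akt2 were higher and Igf1r, Irs1, Akt1 and Grb14 lower, 7 of 9, where 13.9% of all genes were called higher and 29.9% lower, 43.8% in all. The median of all genes was itself -0.45 in TELP N9 and -0.18 in standard, against 0.01 and -0.05 after median of ratios scaling. No direction in either type turned under the 3 other scalings, but calls were lost or gained. Median of ratios gave 3 higher and 2 lower in TELP N9 and 2 higher and 0 lower in both types, without Irs1 (-0.998) and Grb14 (-0.87) in TELP N9 and Igf1r in standard (-0.93). Equal totals gave 1 higher and 5 lower in TELP N9, Pik3r1 being added, and 1 and 1 in both types, with Insr at 0.91 and Akt2 at 0.72 in TELP N9.

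Limma on the 4 TELP N9 and standard libraries, with library type as a block, leaves 1 residual degree of freedom. Its variance comes from how far the day 7 minus day 0 difference disagrees between types, not from the spread between cultures. Each gene's variance was also drawn towards a trend over all 11474 genes, so its p-value does not rest on its own disagreement alone. At a false discovery rate of 0.05 limma called 0 of the 9 genes, beside 1.41% of 11474 genes higher and 0.209% lower. The lowest adjusted p was 0.101 for Irs2, followed by 0.116 for Insr and 0.132 for Igf1r, and the highest was 0.623 for Pik3r1. An unadjusted p under 0.05 was found for 5 of the 9 genes and for 27.3% of all genes.

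**Figure D3:**
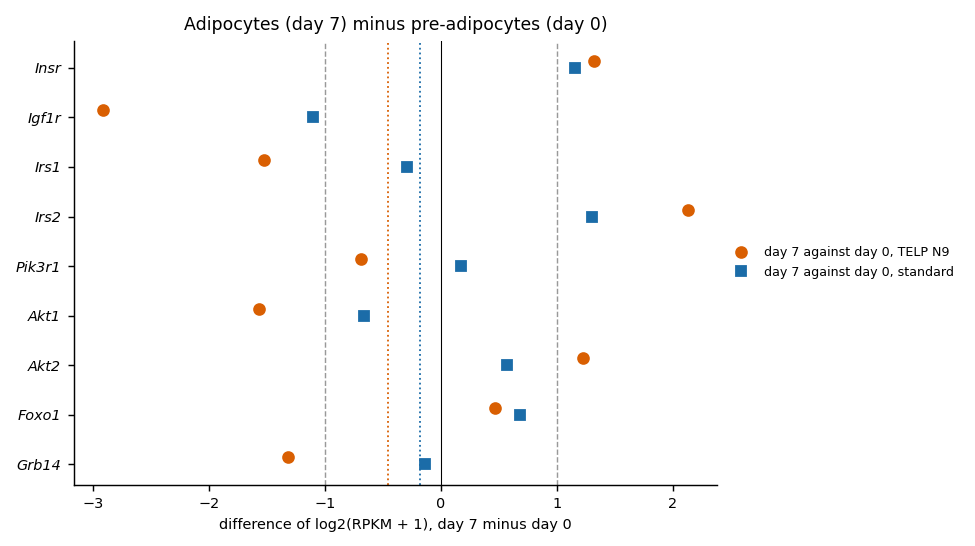
Difference of log2(RPKM + 1), day 7 minus day 0 (x axis), of the 9 genes in TELP N9 (circles) and standard (squares) libraries, with dashed lines at the call threshold of 1 and dotted lines at the median of all genes of each type. Insr and Irs2 lie right of the threshold and Igf1r left of it in both types, and Pik3r1 has opposite signs.

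The library types differed little at day 0 and more at day 7. At day 0 the 9 differences (TELP N9 minus standard) ran from -0.34 for Akt1 to 0.41 for Pik3r1, and 0 of 9 were called, where 2.92% of all genes were, 2.2% higher and 0.718% lower. At day 7 Irs2 was higher in TELP N9 by 1.12, and Igf1r (-1.52), Grb14 (-1.31), Akt1 (-1.24) and Irs1 (-1.08) were lower. These 1 higher and 4 lower genes stand beside 7.51% and 17% of all genes, 24.5% in all. Scaling moved this balance to 2 higher and 1 lower under median of ratios, with Akt2 joining at 1.16 and Igf1r alone lower, and to 0 higher and 6 lower under equal totals. Insr differed by 0.24 and turned to -0.51 under equal totals. The preadipocyte markers moved alongside. Of these 6 markers, 4 were lower in TELP N9 at day 7 and 0 higher, with Pdgfra at 4.65 RPKM in TELP N9 and 52.0 in standard and Ly6a at 29.6 and 82.5. Of the 8 adipocyte markers, 3 were higher in TELP N9 and 0 lower. The part of these markers in the differences of the 9 genes was not tested.

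T18 gave lower RPKM than N9 for all 9 genes at day 7. The difference was -4.06 for Irs2, -2.87 for Akt2, -2.47 for Akt1, -2.42 for Insr, -2.09 for Pik3r1, -1.57 for Irs1 and -1.33 for Foxo1, and these 7 were called lower. Igf1r was at -0.45, and Grb14 at -0.24 was under the filter. Of all 9753 genes tested 84.2% were called, 83.4% lower and 0.841% higher, with a median of -1.77. After median of ratios scaling 1 gene was lower, Irs2 at -2.86, and 2 were higher, Igf1r at 1.04 and Grb14 at 1.05. Low values in T18 rest on few reads for each kb of gene model, an estimated 2.36 for Irs2 and 4.92 for Igf1r. N9_ss and N9 differed by 0.17 for Akt1 and by no more than 0.06 in size for the other genes, with 0 of 9 called against 0.029% of all genes, 0.0194% higher and 0.00968% lower.

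**Figure D4:**
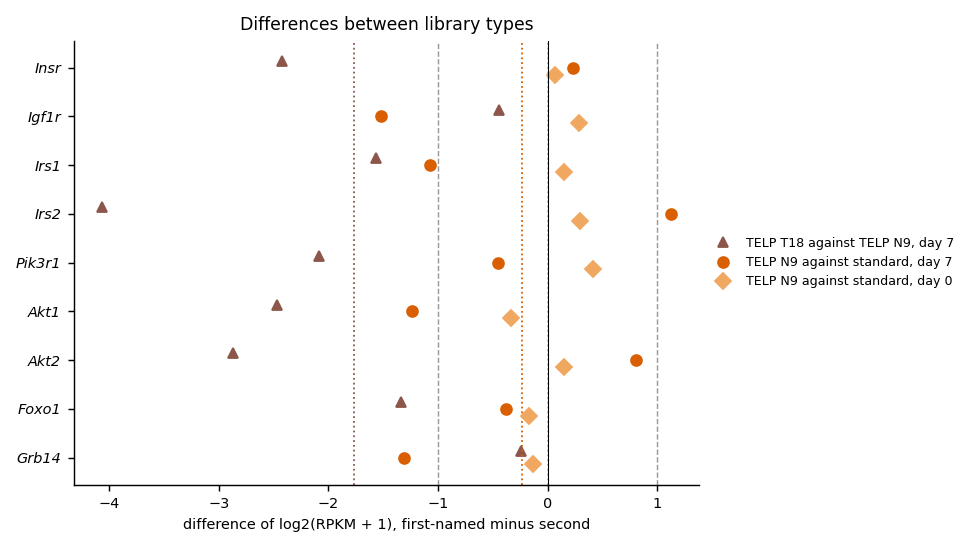
Difference of log2(RPKM + 1) between library types (x axis) for the 9 genes, as T18 minus N9 at day 7 (triangles), N9 minus standard at day 7 (circles) and N9 minus standard at day 0 (diamonds), with dashed lines at the call threshold of 1 and dotted lines at the median of all genes. The diamonds lie within 0.41 of 0, and Irs2 is the rightmost circle and the leftmost triangle.

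Around the 9 genes, 154 others of the pathway were listed by role. The lists were chosen with earlier results of these data known, so their counts are descriptive only. Of 141 that passed the filter, 19 were higher and 6 lower in both library types at day 7, against 7.23% and 5.81% of all genes. Their median difference was -0.38 in TELP N9 and -0.22 in standard, near the medians of all genes. Limma called 7 of them higher and 0 lower, where 1.41% and 0.209% of all genes were. An unadjusted p under 0.05 was found for 40 of the 141, close to the 27.3% of all genes.

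The counts of single lists that follow, in both library types, stand beside 7.23% of all genes higher and 5.81% lower. Among receptors and adaptors 2 of 14 genes were higher and 0 lower. Sh2b2, also called APS, an adaptor that binds the receptor, was at 36.4 and 12.4 RPKM at day 7 and 1.04 and 0.571 at day 0 (limma adjusted p = 0.0436). It was higher at day 7 in TELP N9 and in standard. Of 11 inhibitors of the receptor, 3 were lower and 0 higher, led by Socs3, a cytokine-induced inhibitor, at 1.87 and 3.55 RPKM against 11.5 and 12.7, and by Grb10. None of the 3 passed limma, whose unadjusted p was under 0.05 for 3 of the 11 and for 27.3% of all genes.

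Of 9 further PI3-kinase subunits and of 9 AKT kinases and activators, 0 were called in both types. Among the PI3-kinase subunits a pseudocount of 0.1 RPKM gave 1 higher and 1 lower, and a 1.5-fold call gave 1 higher and 2 lower. A 1.5-fold call gave 1 lower among the AKT kinases and activators. By limma, unadjusted p values were under 0.05 for 1 of the PI3-kinase subunits, 0 of the AKT kinases and activators and 27.3% of all genes. Lipid phosphatases and AKT inhibitors had 2 of 11 higher and 1 lower. Trib3, a pseudokinase that binds AKT, was at 20.1 and 3.40 RPKM at day 7 and 0.956 and 0.827 at day 0. Its relative Trib2 went the other way, at 0.954 and 2.49 RPKM at day 7 and 14.5 and 16.0 at day 0. Ppp2r5b, a regulatory subunit of the phosphatase PP2A, was at 52.9 and 21.2 RPKM at day 7 and 9.15 and 9.57 at day 0. None of these 3 passed limma.

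Among genes downstream of AKT, Slc2a4, the insulin-responsive glucose transporter GLUT4, was at 64.1 RPKM in TELP N9 and 18.4 in standard at day 7, against 0.067 in TELP N9 at day 0, and was listed at 0 in standard day 0 (limma adjusted p = 0.0377). Sort1, a sorting receptor of GLUT4 vesicles, was at 49.97 and 40.0 RPKM against 2.37 and 2.51 (adjusted p = 0.0257 by limma). GLUT4 traffic had 3 of 18 genes higher and 0 lower. Of 10 other AKT substrates 2 were higher and 0 lower. Pde3b, the phosphodiesterase by which insulin restrains lipolysis, was at 86.1 and 35.8 RPKM against 3.62 and 4.13 (limma adjusted p = 0.0495). Gys1, a glycogen synthase controlled through GSK3, was at 108 and 19.8 RPKM against 7.26 and 7.21 and did not pass limma. In the mTORC1 branch 2 of 11 were higher and 0 lower, Eif4ebp1, a repressor of translation, at 240.4 and 137 RPKM against 38.8 and 34.6, and Deptor, an inhibitor of mTOR, at 11.6 and 13.4 against 4.78 and 5.36. Equal totals took Deptor to 0.72 in TELP N9.

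FOXO regulators had 1 of 16 higher and 0 lower, Ywhab, a 14-3-3 protein that can hold phosphorylated FOXO in the cytoplasm. It was at 306 and 303 RPKM at day 7 against 146 and 144 at day 0, and equal totals (0.56) and quantile normalization (0.77) took it under 1 in TELP N9. Of 21 measured genes known as FOXO targets in various tissues, 7 were higher and 1 lower in both types. Pnpla2, the lipase ATGL, was at 1032 and 444 RPKM at day 7 against 3.63 and 3.77 at day 0 (limma adjusted p = 0.0156). Pck1, a key enzyme of glyceroneogenesis, was at 102 and 29.6 RPKM at day 7, listed at 0 in TELP N9 day 0 and at 0.058 in standard day 0 (adjusted p = 0.0333 by limma). Cited2, a transcriptional coregulator, was the 1 lower gene, at 17.8 and 15.9 RPKM against 47.3 and 34.6. Median of ratios took Cited2 to -0.84 in TELP N9 and -0.92 in standard. In TELP N9 alone 9 targets were higher and 8 lower, against 13.9% and 29.9% of all genes. In standard alone 9 were higher and 1 lower, against 8.22% and 6.53%. Limma passed 2 of the 21, and 16, in both directions, had an unadjusted p under 0.05, where 27.3% of all genes did. The medians of the list were 0.71 in TELP N9 and 0.75 in standard. The ERK branch had 1 of 14 higher and 1 lower, the feedback inhibitors Spry4 (16.6 and 6.96 RPKM against 0.413 and 0.412) and Spry2 (11.3 and 10.7 against 36.0 and 24.9). Median of ratios took Spry2 to -0.98 in standard.

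**Figure D5:**
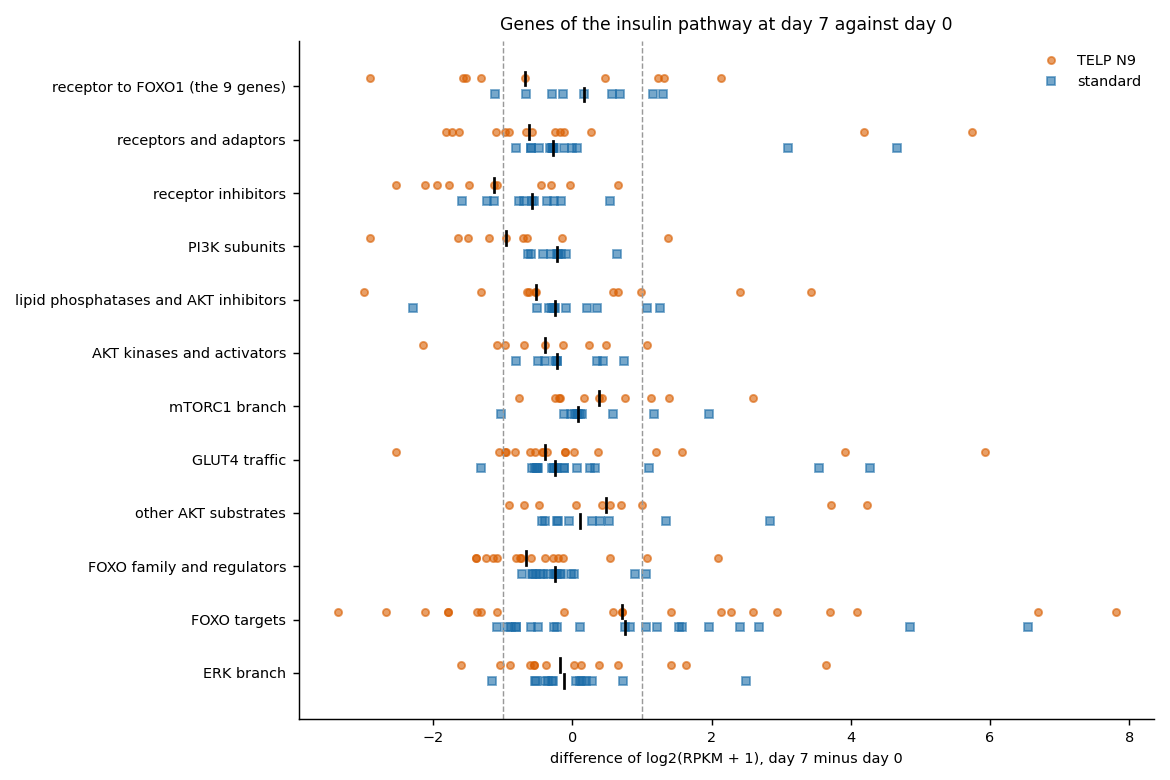
Difference of log2(RPKM + 1), day 7 minus day 0 (x axis), of every gene of each list that passed the filter, in TELP N9 (circles) and standard (squares), with black bars at the list medians and dashed lines at the call threshold of 1. Single genes such as Sh2b2, Slc2a4, Pde3b and Pnpla2 lie far right of the bulk of their lists, whose medians run from -1.12 to 0.75.

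Genes with the most similar pattern were sought for each of the 9, as the least root mean square difference of centred log2(RPKM + 1) over 5 libraries, N9_ss left out, among 11030 genes. Nearest to Insr was Timm17a (0.05 log2 units), at 61.1 and 50.5 RPKM at day 7 and 24.2 and 22.8 at day 0 in TELP N9 and standard. Gas1 was nearest to Igf1r (0.06), at 49.7 and 151 RPKM at day 7 against 399 and 298 at day 0. The gene nearest to Irs1 was Sgsm2 (0.06), and that to Irs2 was Tbrg4 (0.12). Bckdk was nearest to Akt2 (0.05), Cap1 to Akt1 (0.12), Mrps31 to Foxo1 (0.04), AI413582 to Pik3r1 (0.03) and Enpp3 to Grb14 (0.04). Next in order came Tefm and Hspb8 for Insr, Vgll3 and Dbn1 for Igf1r, Prune and Taco1 for Irs2, and Preb and Fbxl6 for Akt2. All these patterns share the same 5 libraries.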

How the data were processed

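The deposited table holds RPKM values that the authors computed for 24029 genes in 6 RNA libraries, 1 library a group, and all its columns could be matched to a sample. The submitters' processing notes list Bowtie2, TopHat, Cufflinks and the build mm9 without versions or settings. Differences were taken on log2(RPKM + 1), with a pseudocount of 1 RPKM, among genes averaging at least 1 RPKM over the libraries compared. A gene was called at a difference of at least 1 in size, a rule of size and not a test. Alternatives were a pseudocount of 0.1, a filter at 5 RPKM, no filter, a 1.5-fold call, 3 other scalings, and T18 or N9_ss in place of N9. A further alternative was limma 3.58.1 (R 4.3.3) on 4 libraries with library type as a block and Benjamini-Hochberg adjustment. Limma's p-values rest on how far the day 7 minus day 0 difference disagrees between library types, which may be technical. They also rest on a trend over all fitted genes, towards which each gene's variance was drawn. The procedure was tested on simulated data in which library types differed only by depth and random noise. That test therefore does not cover the differences between library types seen here. Python 3.11.15, numpy 2.4.6 and pandas 2.3.3 were used.

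Depth was estimated from the steps of low values in short genes and is approximate, since gene model lengths were not at hand. Promoter stretches came from RefSeq (GRCm38.p6). The 9 genes and the pathway and marker lists were chosen with earlier results of these data known. Of each list, up to 2 genes with the highest and 2 with the lowest mean difference among those called in both library types are named, and Slc2a4, Grb10, Foxo3, Foxo4, Pik3r2, Pik3r3, Pik3ca and Pik3cb whatever their values, except that some items are not reported here. Irs4 and marker genes were named after their values were seen.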

Additional observations from a re-analysis of the deposited data

Results flagged for a closer look

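Pik3r1 went opposite ways in the library types. Day 7 minus day 0 was -0.69 in TELP N9 and 0.17 in standard on the log2(RPKM + 1) scale, a gap of -0.86, with 1 library in each group. Slc2a1, which encodes the glucose transporter GLUT1 and was chosen after its values were seen, did so as well. It stood at 62.0 RPKM in TELP N9, 61.8 in N9_ss, 6.58 in standard and 5.05 in T18 at day 7, against 20.2 in TELP N9 and 17.9 in standard at day 0. Its differences were 1.57 in TELP N9 and -1.32 in standard, a gap of 2.89, and each kept its sign under the 3 other scalings. Neither gap was tested.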

How the results depend on the processing

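Under the alternatives, 47 counts of the 9 genes stayed within 1.5 times the reported count and 7 did not. The 47 include counts of 0 that stayed at 0, for N9_ss against N9 and for TELP N9 against standard at day 0. They also include runs with no filter on low values, and runs with N9_ss in place of N9, with which it shares reads. The 47 are thus not all independent checks. Genes called in both library types numbered 1 with T18 in place of N9 and 0 by limma, against 3. A 1.5-fold call gave 5 in standard, against 3. Between TELP N9 and standard at day 7 there were 3 with a filter at 5 RPKM, which drops Igf1r and Grb14, and 3 under median of ratios, against 5. Between T18 and N9 there were 3 under median of ratios and 3 under quantile normalization, against 7. With T18 in place of N9, day 7 minus day 0 turned to -1.64 for Akt2, -1.10 for Insr, -1.93 for Irs2 and -0.87 for Foxo1. T18 minus N9 turned under median of ratios to 0.61 for Foxo1, 1.05 for Grb14, 1.04 for Igf1r and 0.47 for Irs1, and under quantile normalization to 0.67, 1.08, 1.07 and 0.52 for the same genes and 0.024 for Pik3r1. Except for the filter, the cause was not tested. No paired analysis was possible because every group of RNA libraries holds 1 library, so no replicate numbers pair them; limma paired the days by library type instead. Counts of the pathway lists moved by over 1.5 times in 18 cases, such as FOXO targets, at 16 with a 1.5-fold call and 3 with T18 in place of N9, against 8. Estimated depth was low for Igf1r and Grb14 in TELP libraries of day 7 and for Irs2 and Insr in T18, with under 10 reads per kb of gene model. Their read counts are not known, since gene model lengths were not at hand.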
